A study of Labrus bergylta with 77 samples.

Results

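Apolipoproteins are the proteins that carry lipid in blood and lymph, and their genes were followed here through the larval life of ballan wrasse (Labrus bergylta), a marine fish. The copies were chosen by name: every gene of the deposited table whose name equals, ignoring case, one of 10 apolipoprotein names (APOA1, APOA2, Apoa4, APOB, apoba, apobb, APOC2, APOE, apoea and apoeb). This gave 14 of the 29932 genes. The matching itself used no measured value, but the 10 names were chosen with earlier results of these data known. There were 5 copies named apoeb, 6 named APOA4 or Apoa4, 2 named APOB or Apob and 1 named APOA1. No gene was matched for APOA2, apoba, apobb, APOC2, APOE and apoea. All 14 passed the filter on low values, so every copy was tested.

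The measurements were mRNA levels in 77 pools of whole larvae, in TPM (transcripts per 1000000, a level per transcript length scaled to a fixed sum per library). All larvae came from 1 broodstock of 30 females and 6 males, and no genotype or strain is given. The stage BW0 had 5 unfed pools from incubators at 4 days post hatch (dph) and a standard length of 4 mm, extracted with TRIzol where all other stages used QIAzol. Every later stage had 6 tanks and 2 pools from each: B6, B8 and B10 were fed rotifers and then Artemia (the control diet), while in B5, B7 and B9 zooplankton was the live feed. Stages were set by length, so ages could differ. At BW2 all larvae were 9 dph old. Control larvae were 16, 26 and 36 dph old at BW3, BW4 and BW5, and plankton larvae 18, 28 and 41 dph, so diet and age cannot be told apart at these stages. At BW6 and BW7 ages were 58 to 59 and 79 to 80 dph in both diets. All tanks got dry feed from 40 dph and nothing else from 56 dph. The start of dry feed at 40 dph fell before the BW5 sampling of plankton but not of control larvae. Tanks, not pools, are the replicates here: a value is the mean of a tank's 2 pools, with SD over 3 tanks (n = 3) unless another n is given. The tanks of a diet shared parents and hatchery, and each pool mixed all tissues. In such bulk samples fewer cells of a type and less RNA per cell cannot be told apart.

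An apolipoprotein wraps a droplet of triglyceride and cholesterol into a particle that can travel in blood. Apolipoprotein B is the large structural protein of chylomicrons and very low density lipoproteins, and is made mainly where fat is packaged: intestine, liver and, in fish embryos and early larvae, the yolk syncytial layer. Apolipoprotein A-I is the main protein of high density lipoproteins and activates the enzyme that esterifies plasma cholesterol. Apolipoprotein A-IV is secreted by enterocytes with newly absorbed fat in mammals and is produced in intestine and yolk syncytial layer in zebrafish. Apolipoprotein E is the ligand by which receptors of the low density lipoprotein receptor family take up remnant particles, and zebrafish apoeb is strongly expressed in yolk syncytial layer and in macrophages including microglia. Each copy is named below by its gene name and the last 5 digits of its identifier, so that apoeb 47831 stands for LABE_00047831.

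Most of the copies had neighbouring identifiers. APOA4 32932, APOA4 32933 and apoeb 32935 form one run, with a gene named tomm40 just before it. The copies apoeb 47831, Apoa4 47832, apoeb 47833, apoeb 47834 and APOA1 47835 form another, next to a gene named APOC1, which codes for a small apolipoprotein and was not among the 10 names. The last run holds apoeb 76031, APOA4 76033 and APOA4 76034. APOA4 04458, Apob 30903 and APOB 31499 stand apart. In RefSeq's fLabBer1.1 annotation apoeb, apoc1, apoa2 and apoc2 are neighbours in this order, with 1 non-coding gene between apoc1 and apoa2. None of its identifiers matches the table's, so RefSeq genes could not be tied to single copies and no sequence or position is printed. Reads of near-identical copies could be split between them in the authors' counting, so differences between copies of a name are uncertain, and sums over a name are given beside them.

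Read depth is unknown because TPM keeps none. Genes with at least 1 TPM numbered 14958 to 19641 per pool, and muscle, liver, gut and pancreas markers were all present. Of the 77 pools, 9 correlated better with the pools of another group than with their own, 3 of them with another stage. One was BW0 pool 3, which was below all other BW0 pools in 10 of the 14 copies, as it was in 55.3% of all genes tested. The others were pool 3 of tank B5 and pool 3 of tank B8 at BW2. The remaining 6 of the 9 were plankton pools that correlated better with control pools of the same stage. The pools of B5 at BW2 differed 19.2-fold for APOB 31499, at 12.8 and 246 TPM.

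Mean levels over the 41 libraries (36 tank means and 5 BW0 pools) spanned 7.13 TPM for Apob 30903 to 1205 TPM for apoeb 47831, which ranked 134 of all genes. Next came apoeb 76031 at 635 TPM, APOA4 32932 at 517 TPM and apoeb 32935 at 464 TPM. APOA4 76033 was at 445 TPM, and APOA4 32933, APOA4 76034, apoeb 47834, APOB 31499, APOA1 47835 and apoeb 47833 lay between 321 and 172 TPM. APOA4 04458 (36.4 TPM) and Apoa4 47832 (8.25 TPM) were minor copies. The 14 copies together held 0.318% ± 0.0688 of all TPM at BW0 (n = 5) and 0.846% ± 0.00876 in control and 0.71% ± 0.0785 in plankton larvae at BW7.

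The apoeb copies took a growing share of this sum. Their summed level was 1211 ± 344 TPM at BW0 (n = 5) and 6049 ± 48.1 in control and 5121 ± 614 in plankton larvae at BW7, while that of the APOA4 copies was 1470 ± 245 at BW0 and 1980 ± 60.5 and 1610 ± 275 at BW7. At BW0 the apoeb copies made up 37.5% ± 4.58 of it and the APOA4 copies 47.0% ± 6.25 (n = 5). At BW7 apoeb made up 71.5% ± 0.43 in control and 72.2% ± 3.54 in plankton larvae, and APOA4 23.4% ± 0.483 and 22.7% ± 2.88. The SDs of these shares at BW0 and BW7 do not touch, and the shares of the diets at BW7 differed by less than the SD of the plankton tanks. The summed levels of the diets at BW7 differed by more than that SD for both names. The 2 APOB copies peaked as a share at BW4, at 8.09% ± 0.0633 in control and 10.7% ± 0.237 in plankton larvae, and were at 1.23% ± 0.195 and 1.69% ± 0.224 at BW6. These shares are descriptions with no test.

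**Figure D1:**
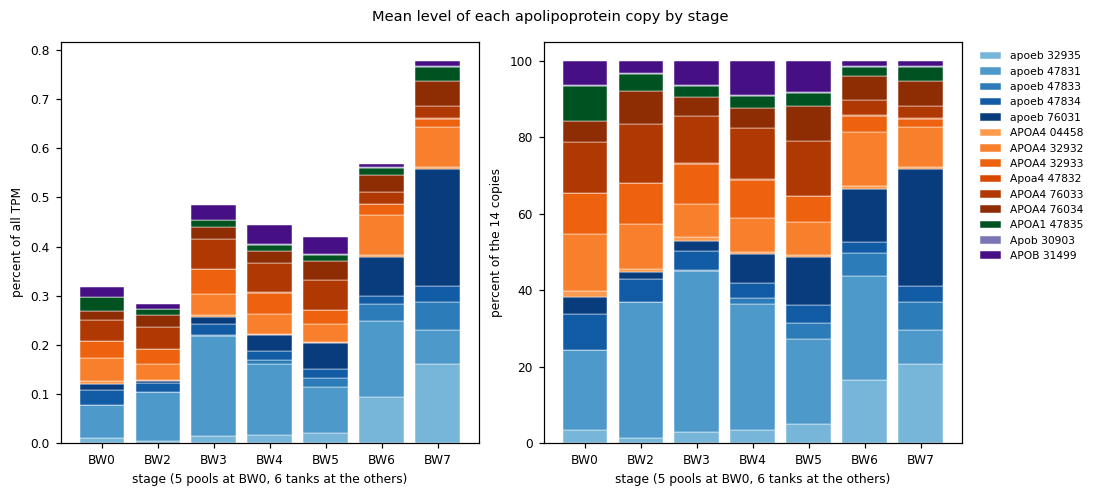
Mean level of each copy by stage, stacked, as percent of all TPM (left) and as percent of the 14 copies (right), over 5 pools at BW0 and 6 tanks at each later stage. Blue is apoeb, orange APOA4, green APOA1 and purple APOB. apoeb 47831 fills most of the blue at BW2 and BW3, and apoeb 76031 and apoeb 32935 most of it at BW7.

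Over the tanks of both diets, the lead among the 5 apoeb copies passed from apoeb 47831, with the highest mean share from BW0 to BW6, to apoeb 76031 at BW7. In plankton larvae at BW6, apoeb 47831 (1367 ± 157 TPM) and apoeb 32935 (1366 ± 1057 TPM) had nearly the same mean. At BW7 the tank shares of apoeb 76031 (28.0% to 53.4%) and apoeb 32935 (19.7% to 42.6%) overlapped. At BW2 apoeb 47831 alone gave 80.8% ± 6.7 of all apoeb TPM and at BW3 80.4% ± 4.32 (n = 6 tanks). By BW7 its share was 12.5% ± 1.16, with 42.0% ± 9.52 from apoeb 76031, 29.3% ± 8.76 from apoeb 32935, 10.1% ± 0.5 from apoeb 47833 and 6.06% ± 0.646 from apoeb 47834. Changes from stage to stage were tested on log2(TPM + 1) with limma across all 22028 genes that reached 1 TPM in 3 libraries, and counted as called where the adjusted p (Benjamini-Hochberg) was under 0.05. For each step both diets had equal weight. Where no diet is named, stage means and SDs after BW0 are over the 6 tanks of both diets (n = 6). Such an SD includes any difference between the diets.

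apoeb 47833 was listed at 0 in all 5 pools of BW0 and rose at every step after BW2. Its mean over the 6 tanks was 0.951 TPM at BW2 (0.111 to 2.26), 10.5 at BW3 (3.90 to 19.9) and 75.8 at BW4 (29.7 to 142). It then reached 177 TPM at BW5 (111 to 244), 346 at BW6 (201 to 501) and 568 at BW7 (432 to 664). The tanks of BW2, BW3 and BW4 did not overlap with each other, while later neighbouring stages did. On the log2(TPM + 1) scale its largest step after BW2 was from BW3 to BW4, at 2.72 ± 0.17 (SE, limma adjusted p = 2.00e-13). Its smallest was from BW6 to BW7, at 0.80 ± 0.17 (limma adjusted p = 0.000397). The added 1 shrinks the step from BW2 to BW3, because levels at BW2 were near 1 TPM or below. As a ratio of mean TPM, the step from BW2 to BW3 was the larger of the first 2.

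apoeb 76031 also had its highest level at BW7. It was at 141 ± 37.5 TPM at BW0 (n = 5), 50.6 ± 35.0 at BW2 and 2381 ± 710 at BW7 (n = 6), where the tanks ranged from 1260 to 3074 TPM. It rose from BW2 to BW3, from BW3 to BW4 (1.57 ± 0.32, limma adjusted p = 0.000349), from BW4 to BW5 and from BW6 to BW7 (1.78 ± 0.32, limma adjusted p = 4.18e-05), and its change from BW5 to BW6, 0.24 ± 0.32, did not pass. apoeb 32935 went from 39.4 ± 22.3 TPM at BW2 to 134 ± 31.9 at BW3 and from 210 ± 87.7 at BW5 to 943 ± 842 at BW6 (1.98 ± 0.34, limma adjusted p = 2.07e-05), and reached 1600 ± 342 at BW7. At BW6 it was the most uneven of the apoeb copies, with 308 to 913 TPM in control tanks and 670, 2583 and 846 TPM in plankton tanks B5, B7 and B9. In that same tank B7, apoeb 76031 was at its lowest for the stage, at 270 TPM, where the other 5 tanks had 489 to 1408 TPM. Macrophage and microglia markers rose in 12 of 18 genes and fell in 0 from BW5 to BW6, where 18.1% of all genes rose and 24.4% fell. Their median was 0.87 against -0.08 over all genes. Their sums were 108 to 262 TPM at BW5 and 256 to 359 TPM at BW6, with no gene at 0. At this step adipocyte markers rose in 3 of 4 genes and fell in 0, and hepatocyte markers rose in 9 of 23 and fell in 3. Glial markers then rose in 2 of 20 genes and fell in 9. From BW6 to BW7, where apoeb 76031 rose by 1.78, macrophage and microglia markers rose in 3 of 18 genes and fell in 1. Of all genes 11.6% rose and 25.4% fell at that step, and the median was -0.04 for these markers against -0.10 over all genes. Hepatocyte markers rose in 20 of 23 genes from BW2 to BW3, with 0 falling, where 63.3% of all genes rose and 5.45% fell. From BW4 to BW5 they rose in 20 of 23, with 0 falling, where 10.6% of all genes rose and 39.1% fell. The rise from BW2 to BW3 was not particular to hepatocyte markers. Enterocyte markers then rose in 46 of 59 genes and fell in 1, and glial markers rose in 18 of 20 and fell in 1. The part of these cell types in the apoeb steps was not tested.

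apoeb 47831 had 2 peaks. It rose from 1001 ± 314 TPM at BW2 to 2052 ± 379 at BW3 (n = 6), fell at each of the next 2 steps to 930 ± 92.9 at BW5, rose to 1541 ± 263 at BW6 and fell to 697 ± 77.5 at BW7. The tanks of neighbouring stages did not overlap at any of these steps. The last fall was the largest, by 1.12 on the log2 scale (SE 0.15, limma adjusted p = 3.94e-07). apoeb 47834 stayed between 157 and 339 TPM as a mean at every stage. Its steps from BW2 to BW3 (0.77 ± 0.21, limma adjusted p = 0.00147) and from BW6 to BW7 (1.23 ± 0.21, limma adjusted p = 1.80e-05) passed, the first of them no longer when libraries were rescaled by size factors (0.42, limma adjusted p = 0.0641).

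**Figure D2:**
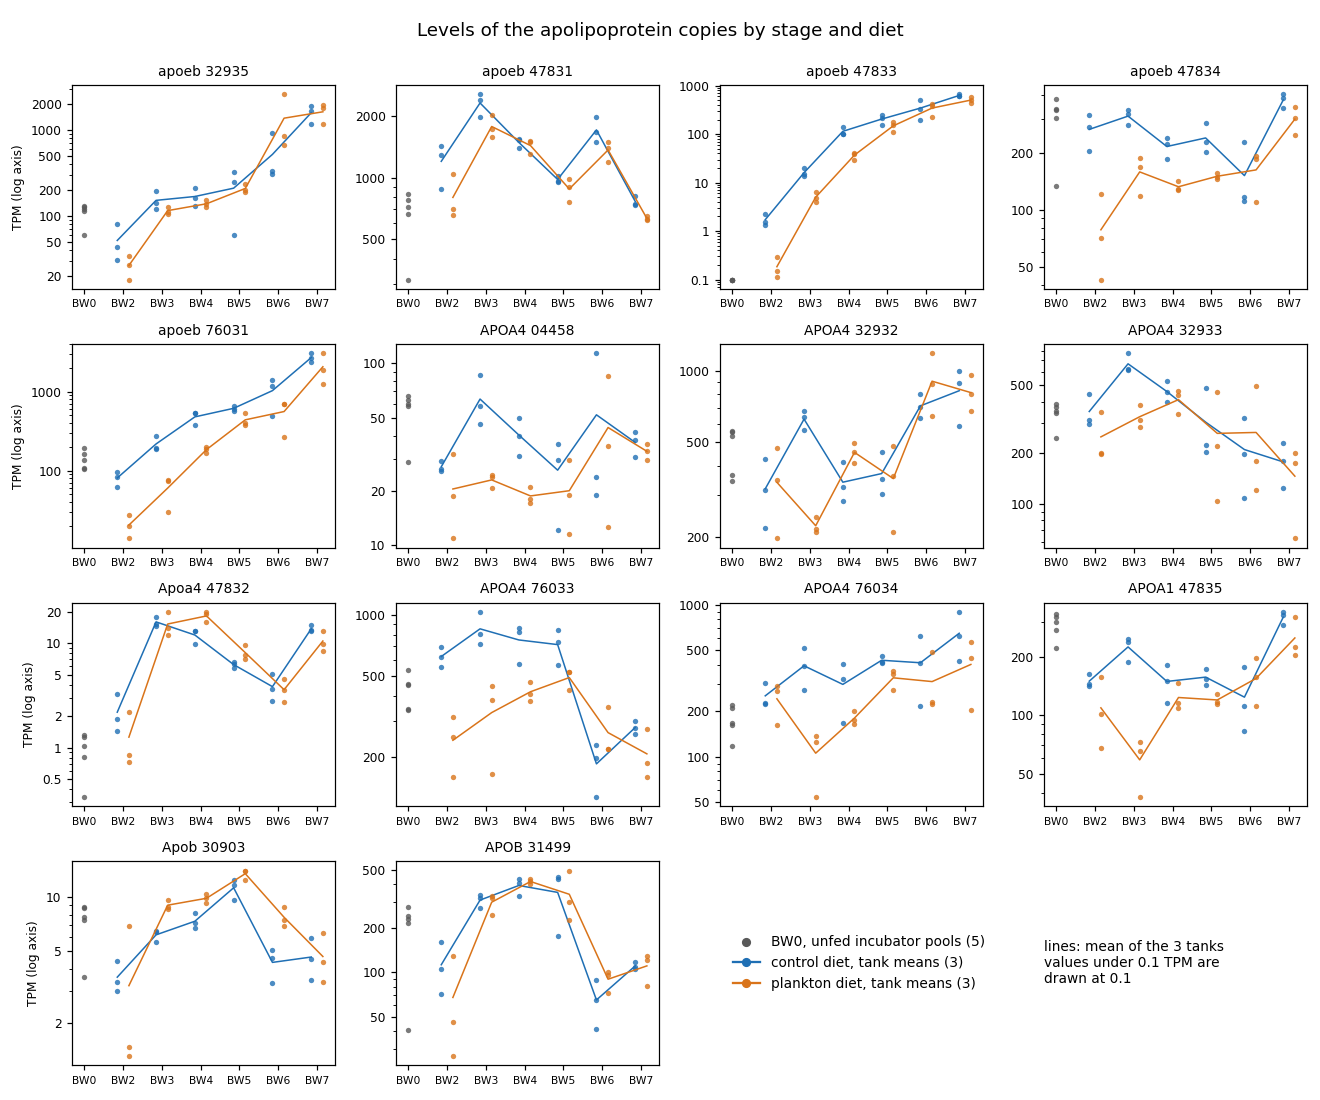
Level of each copy in TPM on a log axis by stage. Grey points are the 5 unfed BW0 pools, blue and orange points the 3 control and 3 plankton tanks (means of 2 pools), and lines the mean of the 3 tanks. Values under 0.1 TPM are drawn at 0.1. apoeb 47833 climbs from 0 at BW0 to 568 TPM at BW7, and APOB 31499 drops from 345 TPM at BW5 to 77.5 TPM at BW6.

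Over the tanks of both diets, APOA4 76033 led the APOA4 copies from BW2 to BW5, and APOA4 32932 led at BW6 and BW7. APOA4 32932 had also led at BW0, with 31.8% ± 2.41 against 29.0% ± 1.36 (n = 5). In plankton larvae it led at BW2 (340 ± 139 against 243 ± 77.8 TPM) and at BW4 (454 ± 44 against 420 ± 46 TPM) as well. APOA4 76033 held 36.7% ± 6.02 of APOA4 TPM at BW5 and 13.6% ± 3.92 at BW6, while APOA4 32932 went from 21.8% ± 4.21 to 48.2% ± 5.62 (n = 6). In TPM, APOA4 76033 fell from 604 ± 154 to 225 ± 73.7, by 1.69 on the log2 scale (SE 0.20, limma adjusted p = 5.76e-08), and APOA4 32932 rose from 361 ± 99.9 to 807 ± 208, by 1.18 (SE 0.20, limma adjusted p = 2.13e-05). The tanks did not overlap for either copy. The summed APOA4 level moved less, from 1851 ± 317 TPM at BW5 to 1577 ± 437 at BW6 in control and from 1464 ± 341 to 1791 ± 411 in plankton larvae. APOA4 32933 went from 497 ± 198 TPM at BW3 to 161 ± 59.0 at BW7, and 1 of its 5 steps passed, a fall by 0.86 from BW4 to BW5 (SE 0.32, limma adjusted p = 0.0266) that was lost with size factors (adjusted p = 0.208). APOA4 76034 rose from BW4 to BW5 (0.75 ± 0.28, limma adjusted p = 0.0282), and APOA4 04458 had no step that passed, with tank values from 10.95 to 114 TPM. The minor copy Apoa4 47832 had the most steps of its name: it rose 2.72 ± 0.15 from BW2 to BW3, fell by 0.95 and 0.81 at the steps to BW5 and BW6, and rose 1.47 ± 0.15 from BW6 to BW7, when it was at 12.1 ± 2.43 TPM (limma adjusted p from 2.08e-14 to 8.49e-05).

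APOA1 47835 was at 221 to 330 TPM in the 5 BW0 pools (mean 289 ± 43.6). Its means over the tanks of both diets were 129 to 142 TPM from BW2 to BW6. It rose to 284 ± 57.1 TPM at BW7, by 1.09 ± 0.19 on the log2 scale (limma adjusted p = 2.87e-05), with no overlap between the tanks of BW6 and BW7. At BW7 control larvae, at 319 ± 24.5 TPM, were above the BW0 mean and plankton larvae, at 249 ± 62.4 TPM, below it. Both APOB copies rose at BW3 and fell at BW6. APOB 31499 rose from 90.3 ± 51.1 TPM at BW2 to 305 ± 35.5 at BW3 (2.23 ± 0.32, limma adjusted p = 4.87e-07), had its highest mean at BW4 (403 ± 35.9) and fell by 2.13 between BW5 and BW6 (SE 0.32, limma adjusted p = 2.19e-06), to 77.5 ± 22.6 TPM. Its tanks at BW5 (178 to 492 TPM) and at BW6 (41.3 to 101 TPM) did not overlap. Apob 30903, at 3.41 to 12.4 TPM as stage means, rose at the step to BW3 by 1.09 ± 0.20 and at that to BW5 by 0.49 ± 0.20, and fell by 1.01 at BW6 (SE 0.20, limma adjusted p = 0.000107).

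Counted over the copies, 8 of 14 rose and 0 fell from BW2 to BW3, where 63.3% of all genes rose and 5.45% fell, and the median of the copies was 0.93 against 0.42 over all genes. From BW3 to BW4, 2 rose (6.26% of all genes) and 1 fell (22.8%). From BW4 to BW5, 4 rose (10.6%) and 3 fell (39.1%). From BW5 to BW6, 4 rose (18.1%) and 4 fell (24.4%). From BW6 to BW7, 6 rose (11.6%) and 1 fell (25.4%), with a median of 0.57 against -0.10 over all genes. Rescaling by size factors moved the median of all genes from 0.42 to 0.17 at the step to BW3, and there it gave 7 copies higher and 2 lower, the lower ones being APOA1 47835 (-0.48) and APOA4 76034 (-0.72). For the step from BW4 to BW5, 3 copies were called in place of 7 without tank B7, without B8 and without B10.

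Each diet at BW2 was also compared with the unfed BW0 pools. In control larvae 3 rose (4.40% of all genes rose) and 3 fell (43.7%). The risers were apoeb 47831, from 661 ± 203 to 1202 ± 284 TPM, Apoa4 47832, and apoeb 47833, which was listed at 0 at BW0. Those that fell were APOA1 47835, from 289 ± 43.6 to 150 ± 12.1 TPM, apoeb 32935 and Apob 30903. In plankton larvae 0 rose (4.86% of all genes) and 9 fell (56.9%). The largest falls in plankton larvae were those of apoeb 76031, from 141 ± 37.5 to 20.5 ± 6.79 TPM (-2.74 ± 0.40, limma adjusted p = 1.45e-06), and of apoeb 47834, from 298 ± 96.3 to 78.4 ± 39.6 TPM (-2.14 ± 0.26, limma adjusted p = 1.15e-07). Both comparisons share the BW0 pools, and RNA reagent and stage cannot be told apart between BW0 and BW2. Without the pools whose title has a space after BW (4 of 5 BW0 pools among them), 3 and 4 copies were called, and fitting only the 2 groups gave 3 in control larvae. apoeb 47831 in plankton larvae, 0.17 ± 0.18, was called higher with size factors (0.62) and called lower without the pools closer to another group (-0.47).

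At BW2, after 5 days in the tanks, plankton larvae had lower levels of 7 of the 14 copies and higher levels of 0. Over all genes 19.7% were lower and 9.49% higher, so many genes differed at this stage. The median of the copies was -0.67 against -0.10 over all genes, and no estimate was positive. With size factors the estimates of APOA4 32932 (0.18) and APOA4 76034 (0.08) were positive. Tanks of the 2 diets did not overlap, plankton below, in 4 copies, where 18.2% of all genes did so. In control tanks B6, B8 and B10, apoeb 47834 was at 204, 317 and 274 TPM, and in plankton tanks B5, B7 and B9 at 121, 71.2 and 42.9 TPM. Every plankton tank was below every control tank, and the log2 difference was -2.00 ± 0.29 (limma adjusted p = 5.23e-06). apoeb 76031 was at 63.0, 97.2 and 82.2 TPM in control tanks and at 27.5, 20.0 and 13.9 TPM in plankton tanks (-1.94 ± 0.45, limma adjusted p = 0.00123). APOA4 76033, the copy with the highest control level of its name at this stage, was at 558, 692 and 625 TPM against 315, 253 and 160 TPM (-1.44 ± 0.29, limma adjusted p = 0.000283). apoeb 47833 was just detected in control tanks, at 1.36, 2.26 and 1.53 TPM, and was at 0.288, 0.153 and 0.111 TPM in plankton tanks (-1.19 ± 0.24, limma adjusted p = 0.000345). At levels this low the added 1 shrinks the difference, which ranged from -2.89 to -1.04 over the alternatives. These 4 calls were kept under all 14 alternatives.

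The other 3 calls at BW2 rested on overlapping tanks. apoeb 47831 was at 883, 1430 and 1293 TPM in control and 1041, 705 and 653 TPM in plankton tanks (-0.69 ± 0.21, limma adjusted p = 0.0114). APOB 31499 was at 71.9, 161 and 106 TPM against 130, 46.2 and 27.1 TPM (-1.24 ± 0.45, limma adjusted p = 0.0340). Apoa4 47832 was at 1.45, 3.26 and 1.86 TPM against 2.20, 0.855 and 0.737 TPM (-0.64 ± 0.22, limma adjusted p = 0.0249). In all 3 tank B5 was the high plankton tank, where its pool 3 was the higher of its 2 pools. Fitting only the groups of BW2 left 4 calls, as did leaving out tank B8 or tank B9. Liver markers moved with these copies: of 23 hepatocyte markers tested (secreted plasma proteins such as transferrin and fibrinogen), 13 were lower in plankton larvae and 0 higher, and their summed level was 925 to 2196 TPM in plankton and 2641 to 2835 TPM in control tanks. Of 26 hepatocyte genes, FGB LABE_00080721 was at 0 in all plankton tanks and ITIH3 LABE_00017232 at 0 in all 6 tanks. Enterocyte markers summed to 1427 to 2271 TPM in plankton and 2859 to 3586 TPM in control tanks, and 1 gene, si LABE_00075642, was at 0 in all tanks. Of 59 tested, 8 were lower and 3 higher, where 19.7% of all genes were lower and 9.49% higher. The median of these markers was -0.13 against -0.10 over all genes. The part of either cell type in the lower apolipoprotein levels was not tested.

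At BW3 plankton larvae had less mRNA of APOA1, of 3 APOA4 copies and of 2 apoeb copies. They had lower levels of 6 of the 14 copies and higher levels of 0, while 0.141% of all genes were lower and 0.141% higher, 62 genes in all. The median of the copies was -1.21 against 0.00 over all genes. Plankton tanks lay wholly below control tanks in 9 copies (6.77% of all genes) and wholly above in 1 (4.85%), Apob 30903. Plankton larvae were 2 days older at this stage, at lengths of 5.9 to 6.0 mm against 5.7 to 6.1 mm.

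APOA1 47835 was at 188, 247 and 238 TPM in control tanks B6, B8 and B10 and at 65.7, 73.1 and 37.9 TPM in plankton tanks B5, B7 and B9. The lowest control tank was more than 2 times the highest plankton tank. The log2 difference was -1.99 ± 0.27 (limma adjusted p = 9.76e-05), a mean of 224 ± 32.1 against 58.9 ± 18.6 TPM. Among APOA4 copies, APOA4 32932 was at 561, 679 and 638 TPM against 212, 243 and 216 TPM (-1.47 ± 0.29, limma adjusted p = 0.0108). APOA4 76033 was at 1035, 807 and 721 TPM against 382, 446 and 167 TPM (-1.53 ± 0.29, limma adjusted p = 0.00759). APOA4 76034 was at 515, 397 and 276 TPM against 138, 124 and 54.2 TPM (-2.02 ± 0.40, limma adjusted p = 0.0113). None of the 3 overlapped between diets, and tank B9 was lowest for APOA4 76033, APOA4 76034 and APOA1 47835. Its pool 2, which correlated better with control larvae than with its own group, was the lower of its pools, at 80.6 against 252 TPM for APOA4 76033 and 27.9 against 80.4 TPM for APOA4 76034. Without the pools closer to another group the APOA4 76033 call was lost (-1.26, limma adjusted p = 0.105, with 0.0065 to 0.548 over the 14 alternatives). APOA4 32933 was at 668 ± 90.6 against 326 ± 50.3 TPM and APOA4 04458 at 63.6 ± 20.3 against 22.9 ± 1.98 TPM, both without overlap and not called (limma adjusted p = 0.720 and 0.500). Apoa4 47832 was at 16.0 ± 1.63 against 15.3 ± 4.20 TPM, with a difference of -0.12 ± 0.22. Summed over the 6 copies, APOA4 was at 2624 ± 274 TPM in control and 1025 ± 245 TPM in plankton larvae.

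Of the apoeb copies at BW3, apoeb 47833 was at 14.8, 19.9 and 13.4 TPM in control tanks and 6.33, 3.90 and 4.78 TPM in plankton tanks (-1.53 ± 0.24, limma adjusted p = 0.00121). apoeb 76031 was at 272, 190 and 192 TPM against 76.9, 73.9 and 29.8 TPM (-2.25 ± 0.45, limma adjusted p = 0.0113). Its lowest tank, B9, had pools of 3.66 and 55.9 TPM. apoeb 47834, at 311 ± 28.3 against 158 ± 36.2 TPM, did not overlap and was not called (limma adjusted p = 0.194). The dominant copy apoeb 47831, at 2324 ± 295 against 1781 ± 226 TPM, differed by -0.39 ± 0.21 (limma adjusted p = 0.846) and apoeb 32935 by -0.35 ± 0.48. APOB 31499 had nearly the same level in both diets, 311 ± 31.1 and 300 ± 45.9 TPM (-0.07 ± 0.45), and Apob 30903 was at 6.17 ± 0.468 in control and 9.02 ± 0.582 TPM in plankton larvae (0.50 ± 0.28, limma adjusted p = 0.871). The 14 copies together held 0.619% ± 0.0284 of all TPM in control and 0.351% ± 0.0569 in plankton larvae.

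**Figure D3:**
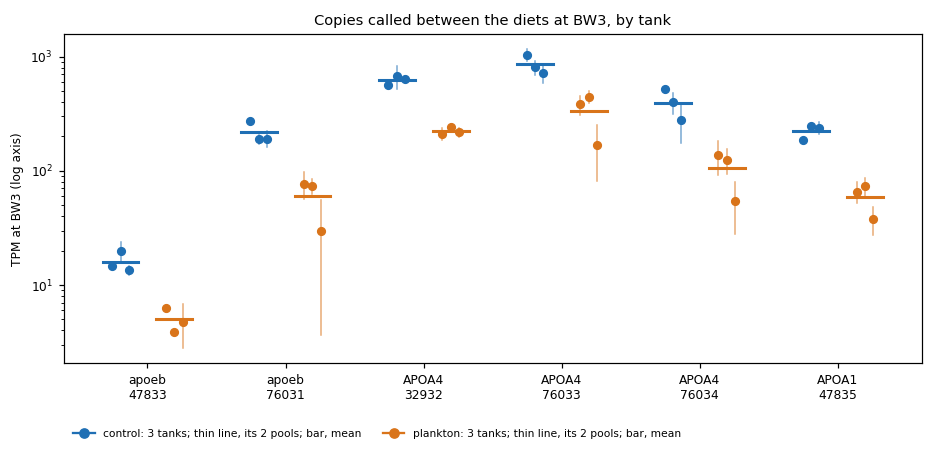
Levels at BW3, in TPM on a log axis, of the 6 copies called between the diets. Points are tanks (blue control, orange plankton), thin lines join the 2 pools of a tank and bars are means of 3 tanks. All plankton tank means lie below all control tank means in each copy, and tank B9 has the widest pool spread for apoeb 76031, 3.66 to 55.9 TPM.

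With only the 2 groups of BW3 fitted, 0 copies and 1 gene in all were called, at the same log2 differences (-1.99 for APOA1 47835, -2.02 for APOA4 76034). The count was 1 without tank B8 and 2 without tank B6, and APOA1 47835 was the copy called whichever of the 6 tanks was left out. Liver markers did not share the direction of these copies. Hepatocyte markers summed to 2818 to 3001 TPM in plankton and 2635 to 3176 TPM in control tanks, with 1 of 23 higher and 0 lower. FGB LABE_00080721 and ITIH3 LABE_00017232 were at 0 in all plankton tanks. Enterocyte markers summed to 3262 to 4286 against 3876 to 4511 TPM, with 3 of 59 higher and 1 lower. Adipocyte markers, of which 4 were measured, summed to 12.7 to 17.2 TPM in plankton and 31.2 to 33.1 TPM in control tanks, with 0 called by limma, and 1 gene was at 0 in each diet. Their part in the difference was not tested.

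From BW4 on few copies were called between the diets. At BW4, 1 copy was lower (0.236% of all genes) and 0 higher (0.431%). It was apoeb 47833, at 102, 142 and 99.7 TPM in control tanks B6, B8 and B10 and at 41.5, 39.9 and 29.7 TPM in plankton tanks B5, B7 and B9 (-1.58 ± 0.24, limma adjusted p = 0.000269), a call kept under all 14 alternatives. Plankton tanks lay wholly below in 5 copies (20.3% of all genes) and wholly above in 2 (10.0%), Apoa4 47832 and Apob 30903. APOA1 47835 was then at 149 ± 33.3 and 123 ± 20.1 TPM, with overlapping tanks. At BW4, 6 copies had an unadjusted p under 0.05, as had 1490 of the 22028 genes tested. Fitting only the groups of BW4 gave 4 calls, all lower. The shares of all genes called above are from the main fit, so these 4 calls cannot be set against them.

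At BW5 no copy was called by limma in either direction, where 0.159% of all genes were higher and 0.141% lower. At an unadjusted p under 0.05 there was 1 copy, beside 1091 of the 22028 genes tested. It was apoeb 47834, with 239 ± 43.4 TPM in control and 150 ± 5.4 TPM in plankton larvae. Plankton tanks lay wholly below in 5 copies (4.59% of all genes) and wholly above in 2 (9.77%). The 5 were apoeb 47834, apoeb 76031, APOA1 47835, APOA4 76033 and APOA4 76034. At BW6 none was called (0.518% of all genes higher, 0.286% lower). An unadjusted p under 0.05 was found for 3 copies and for 1808 of the 22028 genes. The 3 copies were apoeb 32935 (1.42 ± 0.48), apoeb 76031 (-1.11 ± 0.45) and Apob 30903 (0.77 ± 0.28). Only Apob 30903, at 7.73 ± 0.937 TPM in plankton and 4.34 ± 0.900 TPM in control larvae, had plankton tanks wholly above control tanks, as did 6.79% of all genes. Without the pools closer to another group, apoeb 76031 was called at BW6 (-1.40, limma adjusted p = 0.0218). The pool left out at BW6 was pool 2 of plankton tank B9, which correlated better with control larvae. Leaving out a plankton pool for its likeness to control larvae can by itself widen the diet difference, so no support is drawn from this call. At BW7 none was called (0.0726% higher, 0.0136% lower). No copy had an unadjusted p under 0.05, while 838 of the 22028 genes had. Plankton tanks lay below control tanks in apoeb 47831 (631 ± 14.5 against 764 ± 40.0 TPM) and apoeb 47833 (505 ± 70.2 against 630 ± 29.6 TPM), where 4.81% of all genes did so.

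**Figure D4:**
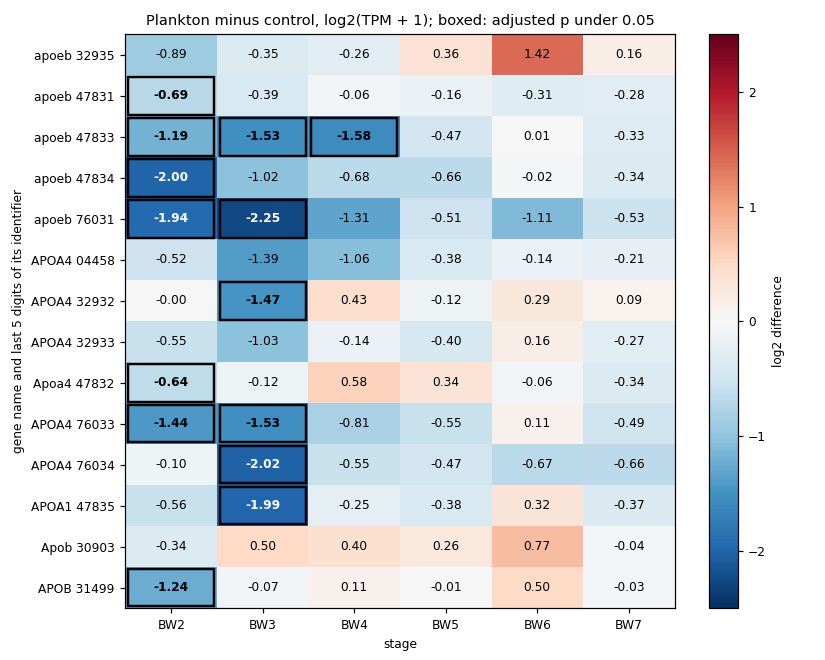
Difference between the diets at each stage, plankton minus control, in log2(TPM + 1) for each copy. Boxes mark limma calls at an adjusted p under 0.05. The boxed values lie at BW2 (7), BW3 (6) and BW4 (1) and are all negative.

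Whether the diet difference itself changed between stages was tested in the same fit. From BW2 to BW3 it moved down in 3 copies, where 7.02% of all genes did so: APOA4 76034 by 1.92 (SE 0.56, limma adjusted p = 0.0151), APOA4 32932 by 1.47 (SE 0.41, limma adjusted p = 0.0101) and APOA1 47835 by 1.43 (SE 0.38, limma adjusted p = 0.00702). At BW2 the diets had differed in them by -0.10, -0.00 and -0.56. Only the groups compared gave 0 such copies, leaving out tank B8 left 1, and leaving out the pools closer to another group gave 3 moving down and 5 moving up, the latter including APOB 31499 (1.83). From BW3 to BW4 the values of APOA4 32932 and APOA1 47835 went back by 1.90 ± 0.41 and 1.73 ± 0.38 and narrowly missed the threshold (limma adjusted p = 0.0649 and 0.0656). No copy was called in that or the 3 later steps by limma. At an unadjusted p under 0.05 there were 4, 1, 0 and 1 copies, beside 1251, 632, 913 and 996 of the 22028 genes. The 2 copies that narrowly missed the threshold from BW3 to BW4 were called when each pool counted as a replicate. That setting treats the 2 pools of a tank as independent, although the tank is the replicate, so it adds no support. With size factors neither was called (limma adjusted p = 0.0873 for APOA4 32932 and 0.0603 for APOA1 47835). With only the groups compared, APOA4 32932 was called (limma adjusted p = 0.0186) and APOA1 47835 was not (0.168). The diet difference at BW6 and BW7, after live feed had ended, was compared with that at BW2 to BW5. It was higher in 1 copy (0.0999% of all genes), apoeb 47833, by 1.03 ± 0.21 (limma adjusted p = 0.0332), and leaving out any one of tanks B7, B8, B9 and B10 gave 0.

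Genes that build lipoproteins were counted beside the shares of all genes given above for each stage. Of 30 lipoprotein assembly genes tested, 14 were lower and 2 higher in plankton larvae at BW2 (19.7% and 9.49% of all genes), with a median of -0.49 against -0.10 over all genes. At BW3, where 0.141% of all genes were called in each direction, 0 were called by limma (median 0.07), a share near that of all genes. An unadjusted p under 0.05 was found for 4 of them and for 1368 of the 22028 genes. Lower at BW2 were Tm6sf2, which helps load lipid onto apolipoprotein B particles, at 4.88 ± 4.48 against 13.7 ± 7.23 TPM (-1.54 ± 0.37), the cargo receptor gene surf4 at 3.29 ± 1.52 against 9.34 ± 4.12 TPM (-1.33 ± 0.27) and the endoplasmic reticulum chaperone gene PDIA4 at 20.2 ± 6.16 against 43.9 ± 6.98 TPM (-1.12 ± 0.17). SOAT2, which esterifies cholesterol in intestine and liver, was higher, at 12.2 ± 4.42 against 2.33 ± 0.436 TPM. Over development Tm6sf2 rose at BW3 (2.19 ± 0.26) and fell at BW5 (-1.85 ± 0.26) and BW6 (-1.38 ± 0.26). MTTP, the transfer protein that adds lipid to apolipoprotein B, rose at BW3 from 11.6 ± 5.08 to 30.0 ± 4.62 TPM (n = 6), as APOB 31499 did.

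Receptors, lipases and regulators gave few calls after BW2. Of 32 lipoprotein receptor genes, 4 were higher and 3 lower at BW2, where 9.49% of all genes were higher and 19.7% lower, and the single later call was SCARB1, the high density lipoprotein receptor, at BW6 (50.2 ± 4.35 against 71.8 ± 4.19 TPM, -0.50 ± 0.12). Of 33 lipase and remodelling genes, 6 were higher and 6 lower at BW2, against the same shares of all genes. Higher in plankton larvae were the phospholipid transfer protein gene PLTP (73.3 ± 23.2 against 21.5 ± 6.34 TPM) and the lipoprotein lipase gene LPL LABE_00026293 (49.3 ± 7.18 against 26.1 ± 2.17 TPM), and lower was Npc1l1, the intestinal cholesterol uptake transporter gene (6.62 ± 3.43 against 11 ± 2.26 TPM). At BW3 the endothelial lipase gene LIPG was higher (27.2 ± 5.67 against 15.7 ± 0.709 TPM, 0.73 ± 0.16). At BW4, 1 gene of this list was higher and 1 lower. The lower gene, ANGPTL4, which codes for an inhibitor of lipoprotein lipase, was at 15.9 ± 1.36 against 39.4 ± 10.3 TPM. Of 27 genes for transcription factors known to act on apolipoprotein genes, 3 were higher and 3 lower at BW2, including ppara (17.3 ± 4.23 against 6.07 ± 1.26 TPM). From BW3 to BW7, 0 were called by limma. At an unadjusted p under 0.05 there were 2, 0, 1, 8 and 1, beside 1368, 1490, 1091, 1808 and 838 of the 22028 genes.

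Other apolipoprotein genes, outside the 10 names, were counted with clusterin and the vitellogenins. Of 22 tested, 4 were higher and 6 lower in plankton larvae at BW2 (9.49% and 19.7% of all genes). At BW4, 7 were higher and 0 lower (0.431% and 0.236% of all genes), and at BW5, 3 were higher and 0 lower (0.159% and 0.141%). The 4 with the largest difference at BW4 and all 3 at BW5 were copies of Apod, a lipocalin, unlike the other apolipoproteins in fold. The copy LABE_00083708 was at 296 ± 70.8 against 69.0 ± 6.06 TPM at BW4 (2.05 ± 0.36, limma adjusted p = 0.00187). Exocrine pancreas markers (digestive enzyme genes) were higher in plankton larvae in 11 of 13 genes at BW4, with sums of 6683 to 7408 TPM against 2323 to 2873 TPM and no gene at 0. APOC1, the neighbour of apoeb 47831 by identifier, was at 644 ± 289 against 1302 ± 103 TPM at BW2 (-1.12 ± 0.20, limma adjusted p = 8.24e-05) and at 2438 ± 350 against 1442 ± 369 TPM at BW6 (0.83 ± 0.20, limma adjusted p = 0.0337). Hepatocyte markers were higher in plankton larvae in 6 of 23 genes at BW6, with sums of 4954 to 6140 TPM against 2675 to 3797 TPM. Exocrine pancreas markers were higher in 11 of 13 genes at BW6, with sums of 3258 to 6383 TPM against 1145 to 1617 TPM. The part of these cell types in the Apod and APOC1 differences was not tested.

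Copies with neighbouring identifiers varied together across tanks. After subtracting the mean of each stage and diet group, the deviations of APOA4 32932, APOA4 32933 and apoeb 32935 correlated at 0.61 to 0.71 (Pearson r over 41 libraries), and those of apoeb 76031, APOA4 76033 and APOA4 76034 at 0.65 to 0.67. In the run of 5 with APOA1 47835 the 10 pairs had a median of 0.48, from -0.13 to 0.72. Pairs not within a run had a median of 0.29 (75 pairs), and those among them of the same name 0.21 (21 pairs). Both counts include pairs with a copy that stands apart from the runs. Between the first and last runs, APOA4 32933 and apoeb 76031 were at -0.38. The highest pair of all, however, was APOB 31499 with apoeb 47834 at 0.86, which share neither name nor run. These are descriptions over libraries of shared tanks, and a pool that stands apart enters every pair.

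**Figure D5:**
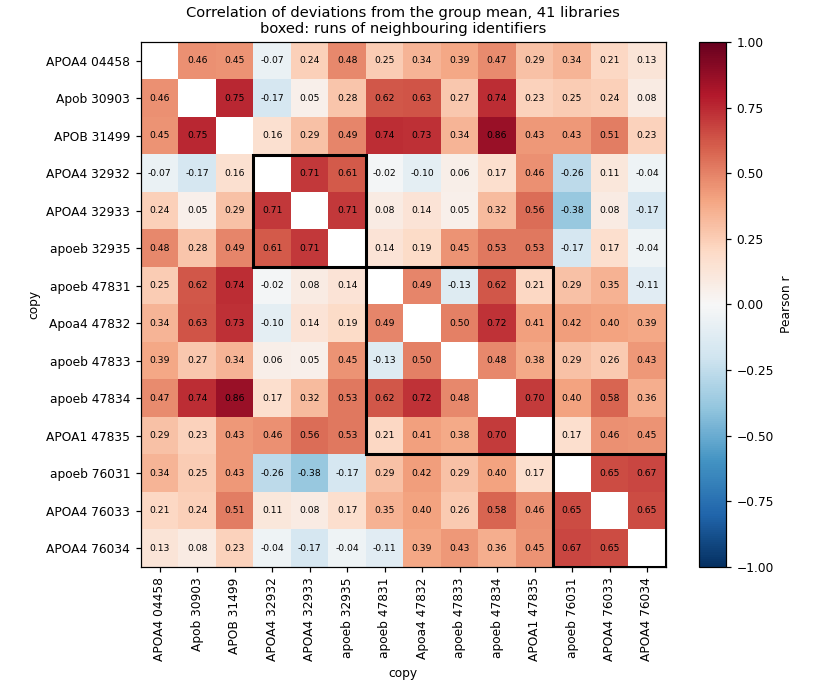
Pearson correlation between copies of their deviations from the stage and diet group mean, log2(TPM + 1), over 41 libraries. Boxes mark runs of neighbouring identifiers. The boxed pairs of the first and last run lie between 0.61 and 0.71, and the cross between these runs holds values down to -0.38.

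Across all 41 libraries the courses of apoeb 47833 and apoeb 76031 were the most alike of all pairs (r = 0.88). Among 11125 other named genes with a mean of at least 5 TPM, the closest to the leading copy of each name were these. For APOB 31499 they were Dap (0.962), ENTPD7 (0.930) and lonp2 (0.924). For APOA1 47835 they were PLIN2, a lipid droplet coat protein gene (0.752), Peptide Y (0.676) and ENPP7, an intestinal sphingomyelinase gene (0.674). For apoeb 47831 they were Alcohol dehydrogenase class-3 (0.780), Vwa7 (0.772) and RTN3 (0.768), and for APOA4 32932 a gene listed as l-2 (0.778), CYTL1 (0.743) and Zc3h12a (0.733). All r are over the same libraries, with no test.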

How the data were processed

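Deposited values were TPM per gene for 77 pools, and every column summed to 1000000. Per the submitters' processing notes the authors used Salmon and edgeR, with versions, options and transcriptome not given in the sources used here, and depth is unknown. Each pool was put on the log2(TPM + 1) scale and the 2 pools of a tank and stage were averaged, giving 36 tank libraries beside 5 BW0 pools. 1 limma 3.58.1 fit in R 4.3.3 with an intensity trend held 13 groups (28 residual degrees of freedom, 3.61 prior). A gene was tested where 3 or more of the 41 libraries reached 1 TPM (22028 genes), with Benjamini-Hochberg adjustment over all of them in each contrast. Printed means are of TPM, so they can differ from the fitted log2 difference. Contrasts were diet at each stage, stage steps, and changes of the diet difference. The procedure was tested on simulated data. Tables and figures used Python 3.11.15, numpy 2.4.6, pandas 2.3.3 and matplotlib 3.10.9.

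The 10 names and all lists were chosen with earlier results of these data known. Copies called between diets, or highest of their name, are given by tank. Other genes are the up to 4 called list members with the largest difference and at least 5 TPM, or the 3 highest correlations. One gene that this rule names is not reported here. Nothing says that the 2 pools of a tank are separate samples of fish beyond their labels. Tank numbers recur across stages: deviations of the same tank at 2 stages correlated at a median of 0.01 (90 pairs, -0.18 to 0.30), against -0.00 for other tanks of the diet. Alternatives were a pseudocount of 0.1, no filter, size factors, pools as replicates, only the groups compared, a tank block, pools left out and each tank left out.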

Additional observations from a re-analysis of the deposited data

Results flagged for a closer look

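BW0 pool 3 was far below the 4 other BW0 pools in 7 copies. It held 40.7 TPM of APOB 31499 where the others had 218 to 278, 28.9 of APOA4 04458 (others 58.4 to 66.0), 3.62 of Apob 30903 (7.43 to 8.79) and 244 of APOA4 32933 (341 to 387). It held 59.8 TPM of apoeb 32935 (116 to 129), 316 of apoeb 47831 (662 to 833) and 134 of apoeb 47834 (303 to 383). This pool is also the 1 BW0 pool whose title has no space after BW. At BW4, tank B10 held 334 TPM of APOB 31499 where the 5 other tanks had 399 to 429, and at BW5 it held 60.2 TPM of apoeb 32935 where they had 192 to 326. These were 9 of 98 groups tested with Dixon's criterion, and chance gives about 1 in 20 where a group is a single normal sample. The 6 tanks of a fed stage mix both diets, and apoeb 47833, at 0 in all BW0 pools, could not be flagged there. The rate is therefore only a rough guide. The 7 flags of BW0 pool 3 come from 1 library and are not independent of each other.

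The diet difference changed between stages in 4 cases by limma's test. From BW2 to BW3 it changed by -1.92 in APOA4 76034, by -1.47 in APOA4 32932 and by -1.43 in APOA1 47835. Between live feed and dry feed stages it changed by 1.03 in apoeb 47833.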

How the results depend on the processing

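No diet call of a single copy changed sign. Of 275 recomputed counts, 249 stayed within 1.5 times. These include comparisons with 0 called copies in the main fit, where a repeated 0 counts as staying, so this share says little about the calls themselves. Fitting only the groups compared gave 4 called copies at BW2, 0 at BW3 and 4 at BW4 for diet, 3 for BW0 to BW2 in control larvae, 5 for BW3 to BW4, and 0 and 1 for the changes of the diet difference from BW2 to BW3 and BW3 to BW4. Shares of all genes called were given for the main fit, so counts under other settings cannot be set against them. Without the pools whose title has a space after BW there were 3 for BW0 to BW2 in control and 4 in plankton larvae, and 2 for the feeding period contrast. With each pool as a replicate that contrast gave 3 and the change from BW3 to BW4 gave 2. Pools of a tank are not independent, so that setting overstates the replication. Without the pools closer to another group, an alternative chosen after seeing the data, 1 copy was called at BW6 and 8 for the change from BW2 to BW3. From BW3 on, the pools it leaves out are all plankton pools closer to control larvae, which can by itself widen a diet difference. Leaving out each tank in turn gave 4 to 8 at BW2, 1 to 6 at BW3, 3 to 7 from BW4 to BW5, 0 to 1 for the feeding period contrast and 1 to 4 for the change from BW2 to BW3. The cause of these moves was not tested. With the replicate block on tank (correlation 0.0364), counts stayed within 1.5 times, with 6 at BW3. Of 196 recomputed diet calls, 35 lost their call. TPM gives no depth, so the precision of low copies such as apoeb 47833 at BW2 is unknown.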
